A study of Mus musculus with 3 samples.

Results

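The respiratory chain genes described here were every gene of the deposited count table whose symbol begins with mt-Nd, mt-Co, mt-Cytb, mt-Atp, Ndufa, Ndufb, Ndufc, Ndufs, Ndufv, Sdh, Uqcr, Cox4 to Cox8 or Atp5, without pseudogenes marked -ps. They were 110 of the 31053 genes in the table. Of these, 13 are encoded by mitochondrial DNA (mt-encoded), 85 are nuclear genes for subunits or their close paralogs, and 12 are nuclear assembly factors (Ndufaf and Sdhaf symbols). At least 1 molecule was counted for 109 of them.

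The cells came from islets of the pancreas, from male mice of the C57Bl6/J strain that were 7 to 8 months old and had been retired from breeding, and were read with the droplet-based 10x 3' assay. There was 1 library per group. The recovered and S961 groups had pumps that delivered S961, a peptide that blocks the insulin receptor (20 nM per week for 2 weeks in the labels), and the recovered group then had its pumps removed. The control group had pumps with no S961. The labels give neither the length of recovery nor the number of mice behind each library, and all islets were cultured overnight and dissociated with TrypLE before loading. With 1 library per group no difference between groups can be tested, so levels are given with intervals that cover counting error only.

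Oxidative phosphorylation runs through complexes I to IV, which pass electrons from NADH and succinate to oxygen and pump protons, and through complex V, the ATP synthase that the proton gradient drives. Complex II is built from nuclear genes only, whereas complexes I, III, IV and V join nuclear-encoded subunits to subunits made inside the organelle. In beta cells the ATP made from glucose closes potassium channels and so links glucose to insulin release. Mitochondrial transcripts are cut from long precursors, and mt-Nd6 is the only one of these messages annotated on the minus strand.

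Sequence bears on which mt-encoded members can be told apart. On GRCm38, mt-Atp6 lies at chrM:7927-8607 on the plus strand and its first 43 bases are also the last bases of mt-Atp8; the pair is carried on a shared message, of which a 3' assay reads the mt-Atp6 end. The shared stretch, chrM:7927-7969 plus strand, is shown with the mt-Atp6 start codon in capitals. mt-Nd4l and mt-Nd4 share 7 bases in the same way, and the values of mt-Atp8 and mt-Nd4l are therefore uncertain as measures of separate genes.
mt-Atp8 and mt-Atp6 shared bases: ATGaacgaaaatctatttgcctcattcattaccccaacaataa

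For the nuclear-encoded side, promoter windows of 300 bases (250 before and 50 after the start, RefSeq, GRCm38.p6) were found for 80 of the 97 nuclear-encoded members, in 85 windows. The palindrome bound by NRF1, a regulator of respiratory genes, searched as the 10 capital letters that the Cox6a1 and Ndufa11 windows below share, stood in 7 of these windows (8.24%), against 0.971% of the 32851 windows of all genes. The letters CCGGAAG, read on both strands and bound by ETS factors, stood in 24.7% of member windows, against 8.86% of all windows. Member windows were also richer in G and C, with a median of 58.7%, against 52.7% over all windows, and a match describes letters only. The windows of 3 members that return below are printed, with NRF1 and ETS letters in capitals: Cox6a1 (chr5:115348909-115349208, minus strand), the broadly used partner of the isoform Cox6a2; Ndufa11 (chr17:56717512-56717811, plus strand), one of the members lowest in S961; and Ndufa1 (chrX:37191189-37191488, minus strand), the member with the highest S961 over control ratio among those with at least 100 UMIs, whose window holds neither the NRF1 nor the ETS letters. The other letters searched, on both strands, were ACGTG, the core bound by hypoxia-inducible factor, in 24.7% of member windows, against 19.6% of all, and CACGTG, the E-box, which holds ACGTG, in 8.24% of member windows, against 7.15% of all.
Cox6a1: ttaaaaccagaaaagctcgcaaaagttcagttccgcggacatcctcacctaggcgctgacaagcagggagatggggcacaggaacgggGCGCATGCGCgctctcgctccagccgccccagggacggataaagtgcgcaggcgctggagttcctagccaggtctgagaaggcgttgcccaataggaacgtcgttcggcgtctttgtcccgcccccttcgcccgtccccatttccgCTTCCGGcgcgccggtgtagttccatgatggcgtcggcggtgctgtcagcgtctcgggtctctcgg
Ndufa11: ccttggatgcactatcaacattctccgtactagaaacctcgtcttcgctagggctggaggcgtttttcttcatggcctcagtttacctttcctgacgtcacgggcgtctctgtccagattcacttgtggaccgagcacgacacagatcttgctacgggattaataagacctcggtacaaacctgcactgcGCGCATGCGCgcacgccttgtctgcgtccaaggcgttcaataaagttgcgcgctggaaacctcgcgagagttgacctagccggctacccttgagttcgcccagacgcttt
Ndufa1: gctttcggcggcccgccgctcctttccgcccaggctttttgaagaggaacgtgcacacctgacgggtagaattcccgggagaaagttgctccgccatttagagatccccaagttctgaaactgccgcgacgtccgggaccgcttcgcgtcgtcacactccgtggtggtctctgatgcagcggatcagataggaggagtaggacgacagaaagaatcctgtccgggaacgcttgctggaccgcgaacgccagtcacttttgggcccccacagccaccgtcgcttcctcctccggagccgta

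The libraries held 7805 barcodes in recovered, 5905 in S961 and 10880 in control, with 40102058 unique molecular identifiers (UMIs, 1 per captured RNA molecule) in recovered, 47651767 in S961 and 38265969 in control. Barcodes with at least 500 genes and at most 20% mt-encoded UMIs were kept, and called doublets were removed, leaving 3513 cells in recovered, 3430 in S961 and 4267 in control. The S961 library stood apart before this filter. The median barcode had 23.1% mt-encoded UMIs in recovered, 5.82% in S961 and 26.4% in control. The 13 mt-encoded members are the only mt- symbols in the table, so the 20% maximum acts on the members themselves, and their levels are given with and without it. Doublets called were 24 in recovered (0.679%), 77 in S961 (2.20%) and 3 in control (0.0703%). The expected rate set was 0.06, so doublets may remain, above all in control. Why so few were called was not tested. Barcode sequences shared between libraries numbered 51, of which 13 were among kept cells.

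Classes were named from marker genes and are called "-like". There were 2066 beta-like cells in recovered, 1487 in S961 and 2929 in control, and alpha-like, delta-like, endothelial-like and stellate or fibroblast-like cells also passed 50 cells in every library. The alpha-like cluster was also led by Ppy, the hormone of PP cells. For each library and class, the UMIs of all its cells were added up and scaled to a class total of 1000000 (CPM).

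Beta-like cells had the highest mt-encoded share of the 5 classes in recovered and control, but not in S961, where delta-like and alpha-like cells were higher. In S961 beta-like cells were the highest without the 20% maximum, at 6.73%, against 6.67% in delta-like and 6.41% in alpha-like cells. Barcodes above the maximum were there classed by their nearest kept cells. The 13 members took 8.08% of beta-like UMIs in recovered, 5.38% in S961 and 7.68% in control. In alpha-like cells the share was 6.52% in recovered, 6.01% in S961 and 6.26% in control. Delta-like cells had 7.28% in recovered, 5.95% in S961 and 6.73% in control, so the S961 library was lowest in all 3 endocrine classes. Endothelial-like cells had 3.48% in recovered, 3.46% in S961 and 4.37% in control, and stellate or fibroblast-like cells had 4.64% in recovered, 4.42% in S961 and 4.88% in control, both below the endocrine classes in each library. The median cell gave another order of libraries, with 2.65% in recovered, 2.81% in S961 and 2.51% in control for endothelial-like cells, and 3.93% in recovered, 3.67% in S961 and 2.89% in control for stellate or fibroblast-like cells.

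The nuclear-encoded subunits had another order across classes. They were lowest in beta-like cells, at 1.28% of UMIs in recovered, 1.21% in S961 and 1.37% in control, and highest in stellate or fibroblast-like cells, at 1.85% in recovered, 1.90% in S961 and 1.80% in control. Insulin RNA took 31.2% of beta-like UMIs in recovered, 33.4% in S961 and 30.8% in control, and its part in the low share of this class was not tested. The mt-encoded over nuclear-encoded ratio was highest in beta-like cells, at 6.31 in recovered, 4.44 in S961 and 5.62 in control. Endothelial-like cells had 2.19 in recovered, 2.38 in S961 and 2.84 in control, and stellate or fibroblast-like cells 2.51 in recovered, 2.32 in S961 and 2.72 in control, and both lay below the endocrine classes in every library. Fewer mitochondria and fewer transcripts per mitochondrion cannot be told apart in such sums.

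**Figure D1:**
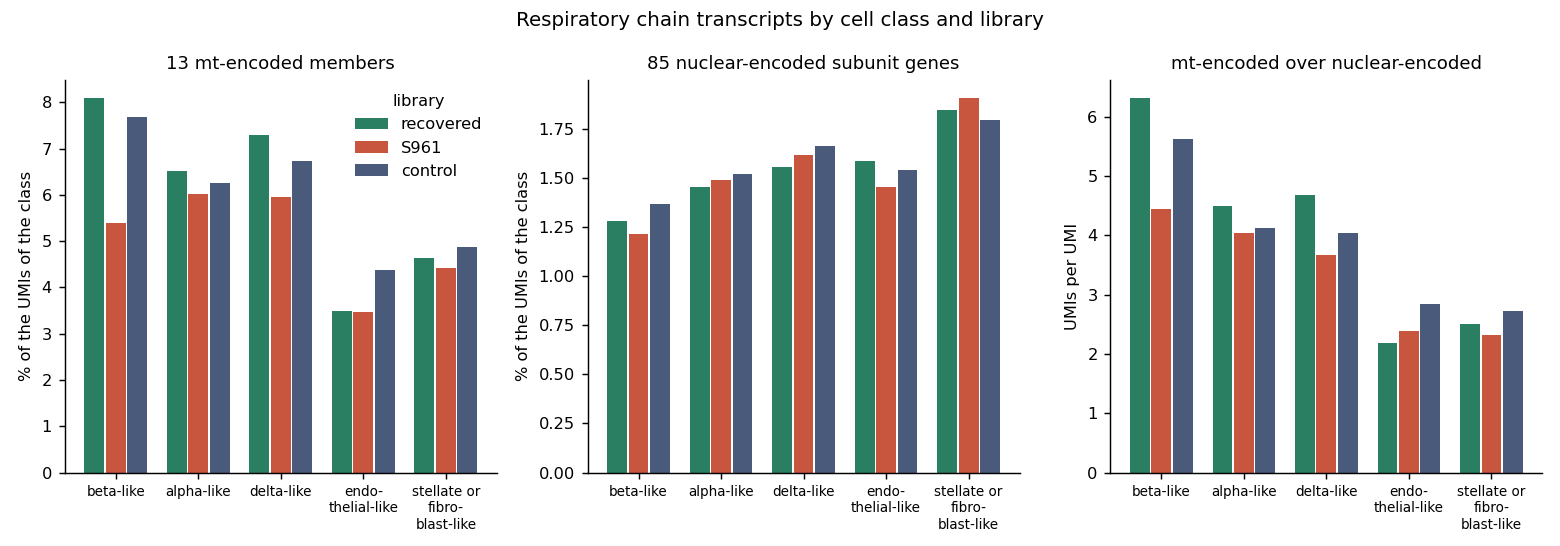
Share of UMIs from the 13 mt-encoded members (left), from the 85 nuclear-encoded subunit genes (middle) and the ratio of mt-encoded to nuclear-encoded UMIs (right), by class, with 1 bar per library. In beta-like cells the mt-encoded bar is 8.08% in recovered, 5.38% in S961 and 7.68% in control, while the nuclear-encoded bars lie between 1.21% and 1.37%.

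Some classes passed 50 cells in 1 library only. Acinar-like cells of S961 had 1.01% mt-encoded and 0.638% nuclear-encoded subunit UMIs, both lower than in any of the 5 classes. Macrophage-like cells of S961 had 3.36% mt-encoded UMIs. In recovered, T or NK-like cells had 5.38% and B-like cells 5.39%. A further insulin-rich cluster was led by Trh, Msln, Gad2 and Gad1, with the pseudogene Ftl1-ps1 also among its leading genes. It had 2.09% mt-encoded UMIs in recovered, 1.91% in S961 and 2.04% in control. Its nuclear-encoded shares were 1.32% in recovered, 1.40% in S961 and 1.35% in control. Its ratios of 1.58 in recovered, 1.37 in S961 and 1.51 in control thus lay far below those of beta-like cells.

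Between S961 and control, beta-like cells summed over all depths had less of every complex from both genomes, and the mt-encoded part was lower by more. The libraries differed in depth, and this gap between the genomes depended on it, as given below. The mt-encoded sum was 53823 CPM in S961, against 76846 CPM in control, a log2 ratio of -0.51 (95% interval -0.52 to -0.51). The nuclear-encoded sum was 12113 CPM in S961, against 13662 CPM in control, a log2 ratio of -0.17 (-0.18 to -0.17). Among the mt-encoded sums the log2 ratio was -0.44 for complex I, -0.46 for complex III, -0.50 for complex IV and -0.66 for complex V. The nuclear-encoded sums lay close together, at -0.17 for complex I, -0.20 for complex II, -0.17 for complex III, -0.15 for complex IV and -0.19 for complex V. Complex II, which has no mt-encoded subunit, thus sat with the nuclear-encoded sums of the other complexes.

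The ratio between genomes differed between libraries in each mixed complex. Complex I had 3.32 mt-encoded UMIs per nuclear-encoded UMI in recovered, 2.18 in S961 and 2.64 in control. Complex III had 6.19 in recovered, 4.43 in S961 and 5.43 in control, and complex IV had 15.5 in recovered, 11.2 in S961 and 14.2 in control. Complex V had 3.86 in recovered, 2.59 in S961 and 3.58 in control. In all 4 mixed complexes S961 was lowest and recovered highest.

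Recovered cells were close to control in both genomes. The mt-encoded sum was 80820 CPM in recovered, against 76846 CPM in control, a log2 ratio of 0.07 that ran from -0.037 to 0.14 over the alternatives tried. The nuclear-encoded sum was 12810 CPM in recovered, against 13662 CPM in control, a log2 ratio of -0.09. Complex I was the mt-encoded part that stood highest over control, at 0.22, against 0.11 for complex III, 0.03 for complex IV and 0.02 for complex V. Set against S961, the recovered mt-encoded sum had a log2 ratio of 0.59 and the nuclear-encoded sum 0.08. These comparisons share libraries, so their values are not independent.

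**Figure D2:**
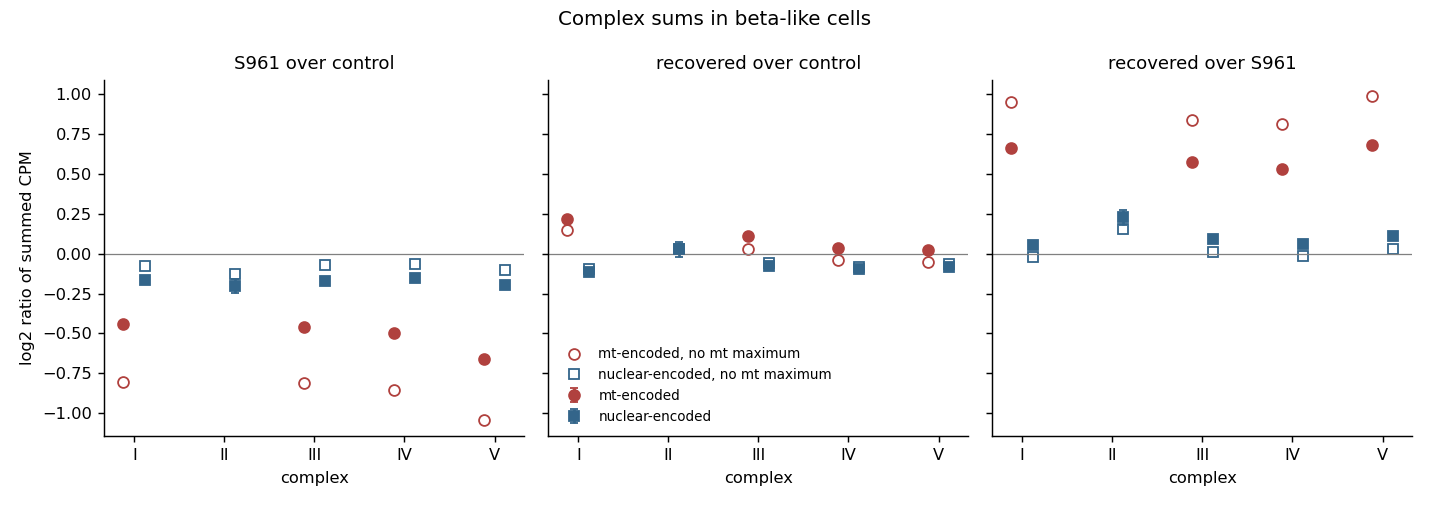
Log2 ratio of summed CPM in beta-like cells for each complex, mt-encoded (circles) and nuclear-encoded (squares), in 3 comparisons; bars are 95% counting intervals and open symbols repeat the sums without the 20% maximum. Filled circles lie from -0.66 to -0.44 in S961 over control, and the squares from -0.20 to -0.15.

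The mt-encoded members differed from one another. mt-Atp6, the proton channel subunit a of complex V, had 14716 CPM in recovered, 9137 in S961 and 14477 in control (S961 over control log2 -0.66, -0.67 to -0.66). mt-Co2, the subunit that takes electrons from cytochrome c, had 12173 CPM in recovered, 7692 in S961 and 11966 in control (-0.64). mt-Co1, the catalytic heme and copper subunit of the same complex, had 12110 CPM in recovered, 9715 in S961 and 11103 in control, and differed least among the abundant members (-0.19). mt-Co3 was lower in S961 by 0.62 on the log2 scale. S961 was the lowest library for each of these 4, but for mt-Co1 the direction turned under some alternatives, with S961 over control running from -0.46 to 0.15 and recovered over S961 from -0.11 to 0.55.

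Among complex I messages, mt-Nd4, a proton-pumping subunit, had 6278 CPM in recovered, 3862 in S961 and 5505 in control (log2 -0.51 for S961 over control). mt-Nd2 stood highest in recovered, with 4520 CPM, against 2628 in S961 and 3646 in control. The S961 over control log2 ratio was -0.36 for mt-Nd1, -0.46 for mt-Nd3 and -0.28 for mt-Nd5. Over the alternatives this ratio ran from -0.72 to 0.050 for mt-Nd1 and from -0.58 to 0.14 for mt-Nd5, so both changed sign. mt-Cytb, the mt-encoded subunit of complex III, had 7812 CPM in recovered, 5247 in S961 and 7226 in control (-0.46). In all, 8 of the 13 mt-encoded members were lower in S961 than in control by 0.32 or more on the log2 scale (the limit used for "higher" and "lower" throughout), and 12.2% of the 11608 genes measured in beta-like cells were that much lower. Against S961, 9 of 13 were higher in recovered, beside 14.0% of all genes.

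In beta-like cells the 3 mt-encoded members with the fewest UMIs lay nearer to level. The minus-strand message mt-Nd6 had 20.6 CPM in recovered, 23.0 in S961 and 21.9 in control, with counting intervals that overlap (S961 over control log2 0.07, -0.12 to 0.25). mt-Atp8 had 51.0 CPM in recovered, 48.1 in S961 and 49.2 in control. mt-Nd4l had 216 CPM in recovered, 209 in S961 and 194 in control. None of these 3 was lower in S961 by 0.32. In delta-like cells S961 over control was 0.53 for mt-Nd4l, 0.54 for mt-Atp8 and 0.64 for mt-Nd6, with intervals above 0. In alpha-like cells mt-Nd4l had 0.46 (0.25 to 0.67), while mt-Atp8 (0.30) and mt-Nd6 (-0.06) had intervals that include 0. In endothelial-like cells all 3 had intervals that include 0.

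Within the mt-encoded messages, complex V and complex IV were lower relative to complex I in S961 and in recovered than in control, in every class. Complex V over complex I was 0.971 in recovered, 0.955 in S961 and 1.11 in control in beta-like cells. It was 0.883 in recovered, 0.853 in S961 and 0.949 in control in alpha-like cells, 1.08 in recovered, 1.09 in S961 and 1.19 in control in delta-like cells, 0.553 in recovered, 0.611 in S961 and 0.793 in control in endothelial-like cells, and 0.801 in recovered, 0.795 in S961 and 0.997 in control in stellate or fibroblast-like cells. Complex IV over complex I in beta-like cells was 2.83 in recovered, 3.10 in S961 and 3.21 in control, and in endothelial-like cells 1.87 in recovered, 1.97 in S961 and 2.34 in control. The 5 classes share the same control library, so a trait of that library would appear in all of them, which was not tested.

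Depth and the mt maximum moved with the mt-encoded result. Beta-like cells had a median of 10293 UMIs in recovered, 14030 in S961 and 7481 in control. Barcodes above the maximum were not clustered, and each took the most frequent class of its 15 nearest kept cells. In control, 1081 of the 1192 barcodes above 40% mt-encoded were labelled beta-like in this way. Among beta-like barcodes taken without the maximum, 34.3% were above 20% mt-encoded in recovered, 12.99% in S961 and 38.2% in control, and the mt-encoded share became 12.3% in recovered, 6.73% in S961 and 12.4% in control. The S961 over control log2 ratio of the mt-encoded sum was then -0.88, and that of the nuclear-encoded sum -0.08. In the other direction, 370 S961 cells held at most 5000 UMIs and had 2.68% mt-encoded UMIs, against 9.68% in the 169 such cells of recovered and 8.55% in the 573 of control. Between 5000 and 10000 UMIs the share was 9.13% in recovered, 6.45% in S961 and 7.97% in control. Between 10000 and 20000 UMIs it was 7.86% in recovered, 5.93% in S961 and 7.10% in control. Above 20000 UMIs it was 6.12% in recovered (94 cells), 5.14% in S961 (428 cells) and 5.77% in control (15 cells).

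The gap between the genomes in S961 against control depended on the depth of the cells. In cells of at most 5000 UMIs, beside the mt-encoded shares given above, nuclear-encoded subunits took 1.21% in recovered, 1.44% in S961 and 1.36% in control. There S961 was thus lowest in mt-encoded and highest in nuclear-encoded share. Between 10000 and 20000 UMIs these subunits took 1.29% in recovered, 1.18% in S961 and 1.40% in control. Above 20000 UMIs they took 1.37% in recovered, 1.22% in S961 and 1.48% in control. In both of these deeper bands S961 was lowest in both shares. Over beta-like cells of 5000 to 15000 UMIs, mt-encoded UMIs were 8.46% in recovered, 6.43% in S961 and 7.69% in control, and nuclear-encoded subunit UMIs were 1.27% in recovered, 1.15% in S961 and 1.36% in control. The mt-encoded over nuclear-encoded ratio was then 6.68 in recovered, 5.60 in S961 and 5.64 in control. The S961 over control log2 ratio there was -0.26 for the mt-encoded and -0.25 for the nuclear-encoded sum. This range of depth was chosen after the data were seen and holds 1577 beta-like cells of recovered, 426 of S961 and 2260 of control. Thinning to 2000 UMIs left out the cells below that depth but kept other shallow cells. It held 2017 beta-like cells of recovered, 1412 of S961 and 2782 of control. The ratio was then 6.66 in recovered, 4.14 in S961 and 5.76 in control. The S961 library was lowest in mt-encoded share in each beta-like cluster. The cluster led by Prss53 had 9.20% in recovered, 5.91% in S961 and 8.998% in control, the cluster led by Pdyn 7.09% in recovered, 4.95% in S961 and 7.14% in control, and the cluster led by the heat shock gene Hspa1b 6.85% in recovered, 5.23% in S961 and 6.86% in control.

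For single nuclear-encoded genes, a member counted as measured at 50 UMIs or more over the 2 libraries compared. In beta-like cells 79 of the 85 subunit genes were measured between S961 and control. Of these, 12 (15.2%) were lower by 0.32 or more, beside 12.2% of all genes, and 2 were higher, beside 15% of all genes. The share lower was thus near the background, and the share higher was below it. That count moved with the cells used: 30 of 77 (39.0%) were lower in cells of 5000 to 15000 UMIs, beside 11.7% of all genes, and 26 of 77 (33.8%) in cells with 4 to 7% mt-encoded UMIs, beside 12%. It was 7 without the mt maximum, beside 14.0%. The median log2 ratio of the 79 was -0.18, against -0.02 over all genes, and 64 of the 79 lay below 0. None of the 12 assembly factors passed 0.32 in either direction.

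Of the complex I subunits, the accessory subunits Ndufb3 (94.7 CPM in recovered, 85.1 in S961, 115 in control) and Ndufa11 (131 in recovered, 106 in S961 and 141 in control) were lower in S961 by 0.44 and 0.41 on the log2 scale. Ndufa13 was lower by 0.36 in S961. Ndufa1, a small accessory subunit encoded on the X chromosome, went against them, with 107 CPM in recovered, 154 in S961 and 108 in control (0.52, 0.44 to 0.59). The S961 level of Ndufa1 stood alone, and the recovered and control levels had overlapping intervals. Over the alternatives its ratio ran from 0.24 to 0.67, so some put it under the limit. Its S961 over control ratio in the other classes lay between -0.15 and 0.18, with intervals that include 0.

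In complex II, Sdha, the flavoprotein that oxidises succinate, had 111 CPM in recovered, 82.7 in S961 and 104 in control (S961 over control -0.33, and from -0.51 to -0.04 over the alternatives). Sdhc, a membrane anchor, had 97.5 CPM in recovered, 77.3 in S961 and 91.7 in control, and Sdhd, the other anchor, had 78.5 CPM in recovered, 79.9 in S961 and 81.9 in control with overlapping intervals. In complex III, Uqcrb, a quinone-binding subunit, had the lowest ratio of the measured nuclear-encoded members, with 198 CPM in recovered, 164 in S961 and 244 in control (-0.57, -0.64 to -0.51). Uqcrfs1, the Rieske iron-sulfur protein, had 112 CPM in recovered, 115 in S961 and 105 in control (0.12), and Uqcr10 and Uqcrh also stayed within 0.32.

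Complex IV held members on both sides. Cox6c had 212 CPM in recovered, 174 in S961 and 240 in control (-0.46), and Ndufa4, first assigned to complex I and now counted in complex IV, had 240 CPM in recovered, 210 in S961 and 276 in control (-0.40). Cox7a2l, which joins complexes III and IV in supercomplexes and is present in C57BL/6 mice as a shortened form, lay above control in S961 but under the limit, with 347 CPM in recovered, 382 in S961 and 313 in control (0.29, 0.24 to 0.33). Ndufa4l2, a paralog of Ndufa4 induced by hypoxia-inducible factor, was the other gene counted as higher. It rested on 37 UMIs in recovered, 42 in S961 and 16 in control. These were 1.65 CPM in recovered, 1.94 in S961 and 0.708 in control (S961 over control 1.45, 0.59 to 2.38). Alpha-like cells had 1.24 CPM (6 UMIs) in S961 and 0.629 (1 UMI) in control. Delta-like cells had 1.18 CPM (4 UMIs) in S961 and 0.502 (1 UMI) in control. Stellate or fibroblast-like cells held far more, as given below, and the part of their stray RNA in the beta-like values was not tested.

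In complex V, Atp5b, the catalytic beta subunit, had 428 CPM in recovered, 350 in S961 and 451 in control (-0.37). Atp5g1, Atp5g2 and Atp5g3 encode the same mature c subunit of the rotor ring from separate genes, and differed between libraries. Atp5g1 had 463 CPM in recovered, 379 in S961 and 533 in control (-0.49), Atp5g2 had 300.2 CPM in recovered, 330 in S961 and 323 in control, and Atp5g3 had 185 CPM in recovered, 168 in S961 and 196 in control. Atp5s, coupling factor B, was also lower, on 209 UMIs in recovered, 153 in S961 and 208 in control.

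**Figure D3:**
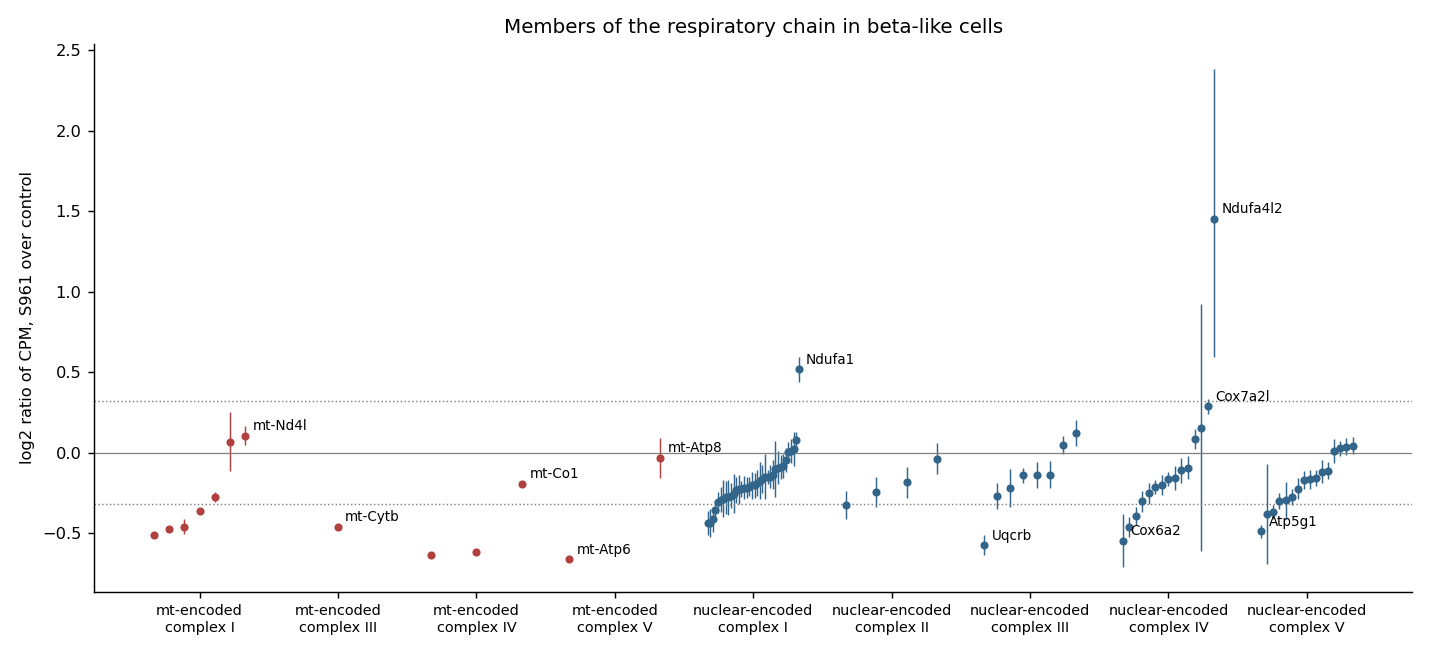
Log2 ratio of CPM, S961 over control, in beta-like cells for each measured member, ordered within mt-encoded (red) and nuclear-encoded (blue) complexes; bars are 95% counting intervals and dotted lines mark 0.32 in either direction. Most points lie below 0, with Ndufa1 at 0.52 and Ndufa4l2 at 1.45 above the upper line.

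Recovered beta-like cells differed from control in few nuclear-encoded members. Over 79 measured, 2 were higher, beside 11.1% of all genes, and 1 was lower, beside 4.35% of all genes. Ndufc2, an accessory subunit of complex I, was the lower one, with 318 CPM in recovered, against 405 CPM in control (-0.35), and S961 had 365 CPM. Cox6a2 was higher, with 48.0 CPM in recovered, against 34.7 CPM in control (0.47, 0.33 to 0.60), and Ndufa4l2 was the other. Uqcrb (-0.30), Ndufb3 (-0.28), Cox5a (-0.26) and Ndufv2 (-0.26) followed Ndufc2 at the low end, within 0.32.

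Between recovered and S961, 7 of 79 subunit genes (8.86%) were higher, beside 14.0% of all genes, and 1 was lower, beside 9.42%. They included Cox6a2 (1.01, 0.86 to 1.17), Sdha (0.43), Atp5s (0.40), Atp5k (0.35), Sdhc (0.33) and Ndufv1 (0.33), the subunit that binds NADH. Ndufa1 was the lower one (-0.53). Both Sdha and Sdhc belong to complex II, whose nuclear-encoded sum had a log2 ratio of 0.23, against 0.05 for complex I. Sdhd, of the same complex, had overlapping intervals, as given above. The nuclear-encoded sum of complex III was 1263 CPM in recovered, against 1185 in S961. It was 2773 CPM in recovered, against 2659 in S961, for complex IV, and 3830 CPM, against 3548, for complex V. The share of subunit genes higher was below that of all genes.

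Tissue isoforms gave the widest differences between classes. Of 78 nuclear-encoded subunit genes with enough UMIs, the median ratio of the highest to the lowest class was 1.67, and 4 reached 3-fold: Ndufa4l2, Cox4i2, Cox6a2 and Cox5a. Ndufa4l2 had 823 CPM in recovered, 595 in S961 and 592 in control in stellate or fibroblast-like cells. Endothelial-like cells had 56.6 CPM in recovered, 41.7 in S961 and 26.4 in control, and no alpha-like or delta-like sum passed 1.24 CPM, so these 2 classes led in all 3 libraries. Its partner Ndufa4 was of one order everywhere, from 210 CPM in S961 beta-like cells to 458 CPM in control endothelial-like cells.

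Cox4i2, the isoform of subunit 4 known from lung and oxygen-sensing cells, was also found mainly in stellate or fibroblast-like cells, with 47.5 CPM (15 UMIs) in recovered, 62.2 (104 UMIs) in S961 and 79.0 (24 UMIs) in control. Delta-like cells had 0 UMIs in every library, which with a floor of 3 UMIs makes the class ratio at least 47.5. Splitting the stellate or fibroblast-like class by the pericyte gene Rgs5 and the fibroblast gene Dcn gave Ndufa4l2 at 902 CPM in recovered, 1022 in S961 and 1207 in control where Rgs5 UMIs exceeded Dcn UMIs. Cells with Dcn UMIs at least equal to Rgs5 UMIs had 885 CPM in recovered, 322 in S961 and 251 in control, from 19 cells in recovered, 46 in S961 and 15 in control, and only the recovered value lay near that of the Rgs5 cells. The cells with neither gene (8 in recovered, 40 in S961, 34 in control) had 109 CPM (3 UMIs) in recovered, 210 in S961 and 179 in control. Ndufa4 was 283 CPM in recovered, 101 in S961 and 252 in control in the Rgs5 cells. It was 436 in recovered, 429 in S961 and 442 in control in the Dcn cells.

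Cox6a2, the heart and skeletal muscle isoform of subunit 6a, was highest in beta-like cells, with 48.0 CPM in recovered, 23.8 in S961 and 34.7 in control (S961 over control -0.55, -0.71 to -0.38, and from -0.79 to -0.28 over the alternatives). The counting intervals of the 3 libraries did not overlap. Its broadly used partner Cox6a1 was close to level there, at 141 CPM in recovered, 136 in S961 and 145 in control. Alpha-like cells had 3 or 4 Cox6a2 UMIs in each library. Delta-like cells had 14.2 CPM (27 UMIs) in recovered, 1.47 CPM (5 UMIs) in S961 and 15.1 CPM (30 UMIs) in control, and insulin RNA took 7.82% in recovered, 0.845% in S961 and 8.08% in control of the delta-like UMIs. The part of stray beta-cell RNA in the delta-like values was not tested.

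The remaining muscle and testis isoforms were scarce. Cox7a1, the muscle partner of Cox7a2, had 34 UMIs in recovered, 32 in S961 and 30 in control over all beta-like cells. Cox8b, a muscle form in rodents, had 0 UMIs in each of the 5 classes, and Cox6b2, known from testis, had at most 6 UMIs in any class and library. Cox7a2, Cox8a and Cox6b1, their broadly used partners, were present in every class.

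**Figure D4:**
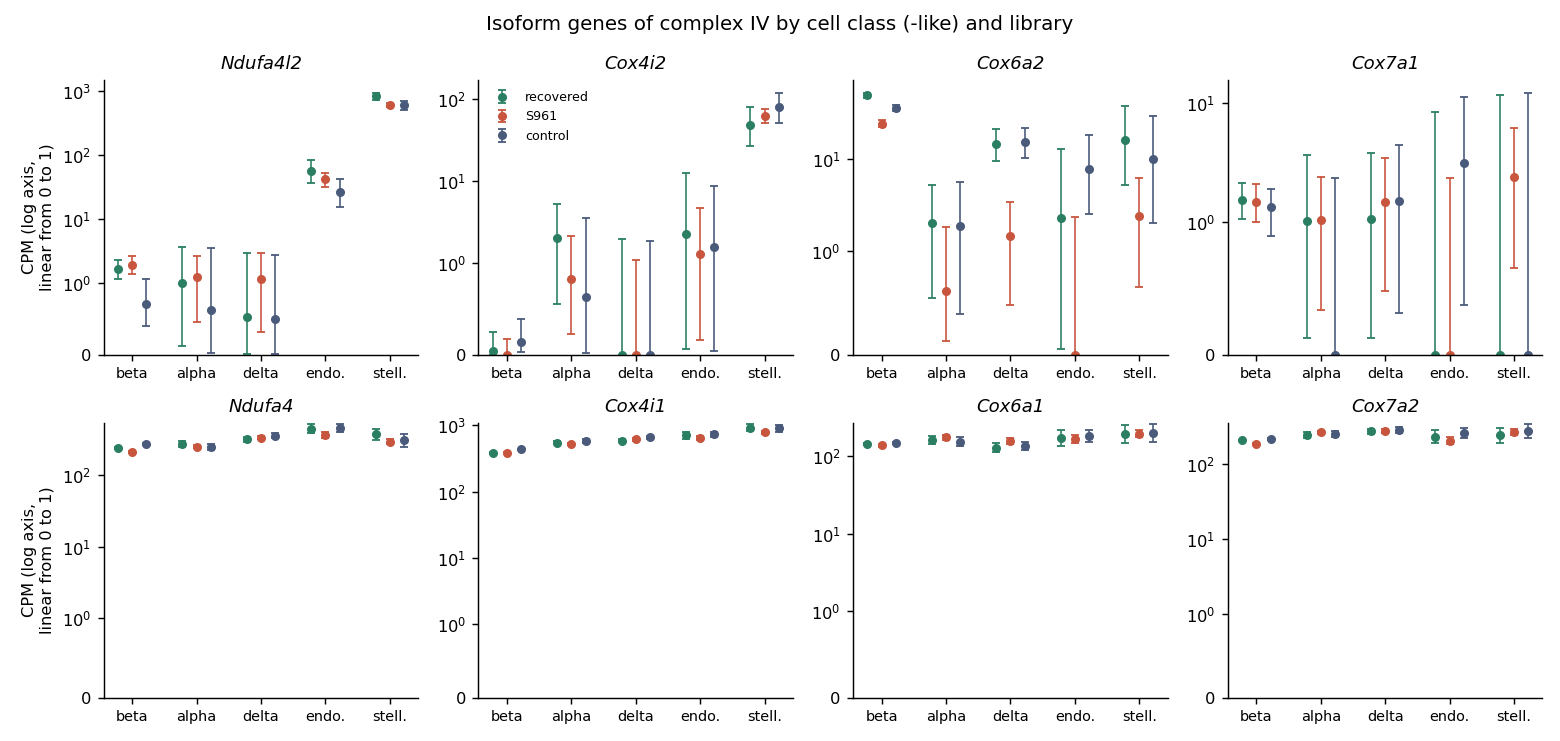
CPM of 4 restricted complex IV isoform genes (upper row) and their broadly used partners (lower row) by class and library, on a log axis that is linear from 0 to 1; bars are 95% Poisson intervals. Ndufa4l2 and Cox4i2 peak in stellate or fibroblast-like cells (823 and 47.5 CPM in recovered) and Cox6a2 in beta-like cells (48.0 CPM in recovered).

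Cox5a and Uqcrc1 were higher in endothelial-like and stellate or fibroblast-like cells than in the 3 endocrine classes of the same library. Cox5a, a subunit that regulates complex IV, had 509 CPM in recovered, 472 in S961 and 478 in control in endothelial-like cells and 386 CPM in recovered, 505 in S961 and 543 in control in stellate or fibroblast-like cells, against 123 CPM in recovered, 126 in S961 and 134 in control in alpha-like cells. Delta-like cells had 189 CPM of Cox5a in recovered, 173 in S961 and 180 in control, and beta-like cells 169 in recovered, 164 in S961 and 203 in control. Uqcrc1, a core subunit of complex III, had 118 CPM in recovered, 154 in S961 and 150 in control in endothelial-like cells and 120 in recovered, 147 in S961 and 109 in control in stellate or fibroblast-like cells. Beta-like cells had 61.6 CPM in recovered, 51.6 in S961 and 60.1 in control, and delta-like cells 66.9 in recovered, 74.5 in S961 and 59.7 in control, and alpha-like cells 57.3 in recovered, 56.7 in S961 and 50.4 in control. Atp5e, a small subunit of the ATP synthase stalk, was highest in alpha-like cells, at 331 CPM in recovered, 356 in S961 and 351 in control. The complex II assembly factor Sdhaf4 averaged 108 CPM over the libraries in delta-like cells and 38.6 CPM in beta-like cells.

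The other classes gave these values between S961 and control. In alpha-like cells the log2 ratio was -0.06 for mt-encoded and -0.03 for nuclear-encoded sums, and 1 of 76 measured subunit genes was higher, beside 19.9% of all genes, and 2 were lower, beside 7.92%. In delta-like cells the sums stood at -0.18 and -0.04, with 1 of 76 higher, beside 24.3%, and 2 lower, beside 8.92%. Endothelial-like cells had -0.34 for mt-encoded and -0.08 for nuclear-encoded sums, with 11 of 76 lower, beside 11.5%, and 1 higher, beside 27.1%, although the median endothelial-like cell had a higher mt-encoded share in S961 than in control, as given above. Stellate or fibroblast-like cells had -0.14 and 0.08, with 19 of 77 higher, beside 41.6%, and 5 lower, beside 14.2%. In cells of 5000 to 15000 UMIs the mt-encoded share was 3.51% in S961, against 5.01% in control, in endothelial-like cells (128 cells in S961 and 45 in control), and 4.75% in S961, against 6.04% in control, in stellate or fibroblast-like cells (104 cells in S961 and 14 in control). The direction between S961 and control in both classes thus depended on whether cells were summed or their median taken. Insulin RNA in the stellate or fibroblast-like class was 2.79% of UMIs in recovered, 1.41% in S961 and 10.4% in control, and its part in these values was not tested.

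Against control, recovered alpha-like cells had 1 of 75 measured subunit genes higher, beside 16.4% of all genes, and 2 lower, beside 10.9%. Recovered delta-like cells had 0 of 77 higher, beside 14.4%, and 4 lower, beside 9.89%. Recovered endothelial-like cells had 8 of 74 higher, beside 24.3%, and 6 lower, beside 11.8%, and stellate or fibroblast-like cells 11 of 70 higher, beside 32.6%, and 9 lower, beside 19.2%. Against S961, neither alpha-like nor delta-like cells of recovered had a nuclear-encoded subunit gene beyond 0.32 among 76 measured, beside 10.7% of all genes higher and 14.9% lower in alpha-like cells, and 9.17% higher and 19.3% lower in delta-like cells. Endothelial-like cells had 17 of 76 higher, beside 16.1%, and 4 lower, beside 18.6%. Stellate or fibroblast-like cells had 4 of 77 higher, beside 18.3%, and 14 lower, beside 37.1%.

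Among all barcodes with at least 500 genes, nuclear-encoded subunits made up 1.47% of nuclear-encoded UMIs in recovered, 1.44% in S961 and 1.53% in control where the mt-encoded share was 5 to 10%. Above 40% mt-encoded the values were 0.628% in recovered, 0.474% in S961 and 0.834% in control. Insulin RNA, as a share of nuclear-encoded UMIs, was also lower there, at 12.4% in recovered, 4.85% in S961 and 17.2% in control, against 28.5% in recovered, 22.4% in S961 and 30.4% in control in the 5 to 10% range. The median depth was 2098 UMIs in recovered, 2721 in S961 and 1791 in control above 40%, and 9178 UMIs in recovered, 11331 in S961 and 7237 in control at 5 to 10%. In every library, barcodes above 40% thus held fewer nuclear-encoded subunit UMIs per nuclear-encoded UMI, fewer insulin UMIs and fewer UMIs in all.

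**Figure D5:**
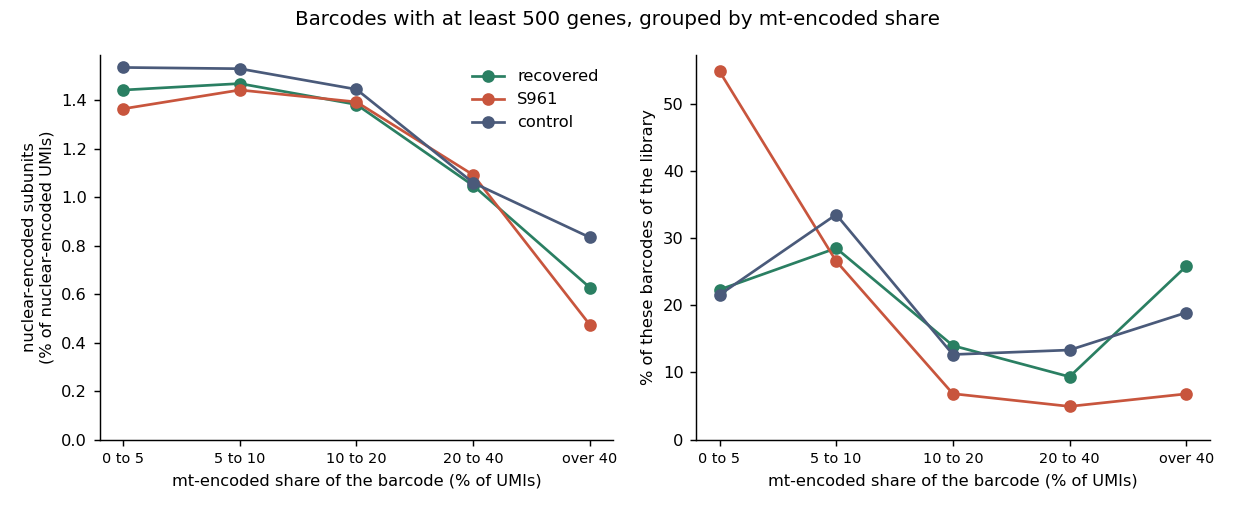
Barcodes with at least 500 genes, grouped by their mt-encoded share of UMIs: nuclear-encoded subunits as a share of nuclear-encoded UMIs (left) and the share of these barcodes in each group (right), by library. The left curves lie at 1.47% in recovered, 1.44% in S961 and 1.53% in control at 5 to 10% and at 0.628% in recovered, 0.474% in S961 and 0.834% in control above 40%.

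Genes that serve the chain without belonging to it gave the following counts in beta-like cells between S961 and control, to be read beside 12.2% of all genes lower, 15% higher and a median log2 ratio of -0.02 over all genes. Some of these counts lie near those shares and others above or below them. Several lists hold few genes, no list was tested, and none is singled out. Of 89 measured genes for mitochondrial RNA handling and ribosomes, 14 were lower and 2 higher, with a median of -0.11. The lower ones included the small ribosomal subunit genes Mrps12 (142 CPM in recovered, 116 in S961, 169 in control) and Mrps14 (128 CPM in recovered, 112 in S961 and 156 in control). Lrpprc, which stabilises mitochondrial messages, was 1 of the 2 higher, with 27.1 CPM in recovered, 28.4 in S961 and 21.8 in control. Of 16 genes for mitochondrial biogenesis, 2 were higher and 2 lower. Ppargc1a, a coactivator of that programme, had 3.48 CPM in recovered, 1.85 in S961 and 1.37 in control.

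Electron carriers and exchangers showed both directions, with 4 lower and 2 higher of 18. Gpd2, the glycerol phosphate shuttle dehydrogenase, had 55.6 CPM in recovered, 33.9 in S961 and 47.2 in control, and Cycs, cytochrome c, had 90.0 CPM in recovered, 85.8 in S961 and 112 in control. Ucp2, an uncoupling protein family member, had 88.6 CPM in recovered, 123 in S961 and 63.7 in control (S961 over control 0.95). Of 19 tricarboxylic acid cycle genes 3 were lower and 0 higher, among them Idh2 with 99.4 CPM in recovered, 73.7 in S961 and 94.2 in control. Among 36 further assembly factors 5 were lower and 2 higher, and among 15 genes of protein quality control 0 were lower and 1 was higher.

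Of 9 measured genes linked to hypoxia-inducible factor, a list that holds Ndufa4l2, 5 were lower in recovered than in control, beside 4.35% of all genes, and 1 was higher, Ndufa4l2 itself, beside 11.1%. Between S961 and control 3 of the 9 were lower and 1 was higher, again Ndufa4l2. Its values rest on few UMIs, with the limit on stray RNA given above. Slc2a1, a glucose transporter, had 27.1 CPM in recovered, 26.04 in S961 and 51.4 in control, and Ldha, lactate dehydrogenase A, had 25.4 CPM in recovered, 30.3 in S961 and 39.6 in control. Of 14 heat shock and early genes, markers of handling stress, 4 were higher and 3 lower in S961 than in control, with Fosb at 17.6 CPM in recovered, 27.5 in S961 and 15.2 in control. The part of handling in the respiratory chain values was not tested.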

How the data were processed

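The deposited values are counts, whole-number UMIs of 1 gene in 1 barcode; the submitters' processing notes name Cell Ranger and mm10, and no version is given there. Barcodes were assigned to libraries by the suffix that the labels give. Barcodes needed at least 500 genes and at most 20% mt-encoded UMIs. Doublets were called with Scrublet (expected rate 0.06) in scanpy 1.11.5. Cells were scaled to 10000, log-transformed, reduced to 2000 variable genes and 30 components, and grouped by leidenalg 0.10.2 at a resolution of 0.5 on a graph of 15 neighbours. Where an alternative used barcodes above the maximum or doublets, each took the most frequent class of its 15 nearest kept cells. Python 3.11.15, numpy 2.4.6, scipy 1.17.1 and matplotlib 3.10.9 were used.

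Ratios between summed UMIs carry exact conditional binomial (Clopper-Pearson) 95% intervals and CPM values exact Poisson ones, which cover counting error only. A gene needed 50 UMIs over both libraries, and higher or lower means 1.25-fold or more, a log2 ratio of 0.322 that is printed as 0.32. Ratios and intervals were checked on counts simulated with counting error only. That check does not cover variation between cells or libraries. Levels of different genes are not compared, since capture differs between genes. The named members are the 13 mt-encoded ones, the nuclear-encoded members at both ends of each comparison in beta-like cells (8 for S961 over control and 5 for the others, at least 100 UMIs, ranked by the interval bound nearest 0), the isoform sets, and the 5 most unequal between classes. Ndufa13, Ndufv1, Sdhc, Sdhd, Uqcrc1, Atp5e, Atp5k, Atp5s and the genes outside the chain were named after their values were seen. Members and lists were chosen with earlier results of these data known. Coordinates are from the GENCODE annotation of GRCm38 and promoter windows from RefSeq. No sequence was used for members without a window. The values of 1 member are not reported here.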

Additional observations from a re-analysis of the deposited data

Results flagged for a closer look

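Sdha between recovered and S961 passed 0.32 (log2) in opposite directions in 2 classes, with counting intervals that exclude 0, and the difference between the classes was not tested. It stood at 0.43 in beta-like cells and at -0.53 in endothelial-like cells, where recovered had 36 UMIs and S961 had 184.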

How the results depend on the processing

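No paired analysis was possible because each group has 1 library. The results recomputed here are, in beta-like cells, the counts of nuclear-encoded subunit genes higher or lower by 0.32 (log2) and the log2 ratios of the mt-encoded and nuclear-encoded sums. The mt-encoded sum of S961 over control stayed below 0 and that of recovered over S961 above 0 under every alternative, but their sizes moved, and the cause of these moves was not tested.

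Without the mt maximum, S961 over control had -0.88 for the mt-encoded and -0.081 for the nuclear-encoded sum. In this comparison 7 of 79 members were lower (8.86%), beside 14.0% of all genes. Recovered over control had -0.00094 and -0.078. Recovered over S961 had 0.88 and 0.0032, with 4 of 79 higher (5.06%), beside 16.2%. With a maximum of 10%, S961 over control had -0.39 and -0.20 with 1 higher, recovered over control -0.037 (mt-encoded) with 1 higher, and recovered over S961 0.35 and 0.11. In cells of 4 to 7% mt-encoded UMIs, which fixes the mt-encoded level itself, S961 over control had -0.12 and -0.25 with 1 higher and 26 lower, recovered over control -0.029 (mt-encoded) with 0 higher, and recovered over S961 0.088 and 0.16. In those cells the mt-encoded over nuclear-encoded ratio reversed. Its S961 over control log2 ratio was 0.14 in all complexes, 0.14 in complex IV and 0.0041 in complex V. For recovered over S961 it was -0.076 for the complexes summed, -0.042 in complex I, -0.12 in complex III, -0.086 in complex IV and -0.00048 in complex V. mt-Nd1 in S961 over control (0.050) and mt-Nd5 in recovered over S961 (-0.067) also reversed there.

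Scaled to nuclear-encoded UMIs, S961 over control had -0.55 and -0.21, recovered over control 0.079 (mt-encoded), and recovered over S961 0.63 and 0.12. In the last comparison 12 of 79 were higher (15.2%), beside 17.9% of all genes. Scaled without hormone UMIs, the values were -0.45 and -0.11, 0.068 (mt-encoded), and 0.52 and 0.016. For recovered over S961, 4 of 79 were then higher (5.06%), beside 9.71% of all genes. As the mean of cells' CPM, the values were -0.66 and -0.10, 0.086 (mt-encoded), and 0.75 and -0.00020. For recovered over control, 2 of 79 were then lower (2.53%), beside 5.63% of all genes. For recovered over S961, 3 of 79 were lower (3.80%), beside 8.93%. Cells thinned to 2000 UMIs gave -0.62 and -0.14 with 20 lower, 0.11 and -0.10 with 4 lower, and 0.73 and 0.041 with 3 lower.

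Clusters made without the members gave mt-encoded sums of -0.51 for S961 over control and 0.58 for recovered over S961. Of the alternatives added after seeing the data, leaving out the stress-led cluster gave -0.54 and 0.61. With it left out, 1 of 78 was higher in recovered over control, beside 11.2% of all genes. Cells of 5000 to 15000 UMIs gave -0.26 and -0.25 for S961 over control. Of 77 members 1 was higher, beside 29.9% of all genes, and 30 were lower, beside 11.7%. These cells gave 0.14 and -0.11 for recovered over control, with 3 of 78 lower, beside 4.73%, and 0.40 and 0.14 for recovered over S961. A minimum of 200 UMIs left 1 of 77 higher in S961 over control, beside 10.4% of all genes, and 1 of 77 in recovered over control, beside 6.94%. At 1.5-fold, 1 of 79 was higher and 0 lower in each of the 3 comparisons. Of all genes, 6.05% were higher and 2.74% lower in S961 over control. The shares were 3.18% and 1.13% in recovered over control, and 3.47% and 3.41% in recovered over S961. Of 1465 values of named members under alternatives, 929 moved by less than their interval, 534 moved by more and 2 reversed, counting only members past 0.32 in the reported values. Without that limit 91 had the other sign, among them mt-Co1 and mt-Nd5 in S961 over control, which reached 0.15 and 0.14, and mt-Co1 in recovered over S961, which reached -0.11. With few cells in endothelial-like and stellate or fibroblast-like classes, depth limits single members there. Between S961 and control, the share of all genes lower ranged from 8.41% to 25.2% over the alternatives that kept the limit of 0.32, and the share higher from 10.4% to 29.9%.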
